A study of Mus musculus with 15 samples.

Results

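A set of 10 genes that mark the alveolar fibroblast of the mouse lung was followed in whole-lung RNA through 3 weeks of bleomycin injury. They were Npnt, Ces1d, Inmt, Tcf21, Limch1, Col13a1, Scube2, Itga8, Gdf10 and Slc7a10, taken by symbol from a table of 33340 gene rows. All 10 passed the filter on low counts that left 17457 genes for testing. Slc7a10 was chosen by its measured level at day 21 against day 0, where it was among the largest falls. Its values against day 0 and at day 21 are therefore given as a description with no p-value. The comparison of day 21 with day 0 is likewise a description for all 10 genes. Counts past the thresholds are given there beside the share of all genes, and nothing is read from them.

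Alveolar fibroblasts lie in the walls of the air sacs beside the gas-exchange epithelium. They hold lipid droplets, supply growth factors to alveolar type 2 cells and lay down the thin matrix that those cells rest on. In scarring lung they are regarded as a source of the activated, collagen-producing fibroblasts. The genes named here serve several of these roles. Tcf21 is a transcription factor of lung mesenchyme, Inmt and Ces1d are enzymes, Npnt is a matrix ligand and Itga8 part of its receptor, and Gdf10 and Scube2 act in secreted signalling. Limch1 is a cytoskeletal protein, Col13a1 a collagen held in the cell membrane, and Slc7a10 an amino acid transporter.

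Male C57BL/6 mice of 10 to 12 weeks were given bleomycin at 5 U/kg by the trachea, a drug that breaks DNA and leaves the lung scarred. Whole lungs were collected at day 0 before any drug (n = 4) and at day 7 (n = 4), day 14 (n = 4) and day 21 (n = 3) after it. The text of the series speaks of 3 replicates at every day, whereas the sample titles give these numbers, and the titles were followed. No group that received the vehicle alone was compared, so time after the instillation and the drug cannot be told apart. The labels of day 0 replicate 4 disagree, its title giving a control and its treatment field the drug, and its title was followed. The labels do not say whether each library came from its own mouse, so p-values measure the spread between these libraries.

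Total counts were 15652008 to 18020661 per library. The share of counts from mitochondrial genes was 2.03% to 2.15% at day 7, 2.28% to 4.22% at day 0, 2.102% to 4.14% at day 14 and 2.66% to 4.01% at day 21. This share moved with the day in part, so values within libraries of a like share stand beside the main results. A gene was called changed where edgeR's quasi-likelihood test gave a p under 0.05 after Benjamini-Hochberg adjustment over all 17457 genes, with a fold change over 1.5. Levels are CPM, read counts scaled to the TMM-adjusted library size, and RPKM, which is CPM per kilobase of exon. Whole lung holds the markers of many cell types, so whether these genes came from fibroblasts alone could not be checked in these libraries. In whole-lung RNA, fewer cells of a type and less RNA per cell cannot be told apart.

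The promoters of 3 of the genes are printed because they stand for the different courses that follow. Of the 10, Slc7a10 and Inmt stood furthest below day 0 at days 14 and 21, while Gdf10 stood higher at day 7. Each runs from 250 bases before to 50 bases after the RefSeq start on GRCm38.p6, the coding strand 5′ to 3′. Capitals mark CAGCTG, an E-box form that proteins of the class of Tcf21 bind, and CAGAC on either strand, the core letters of SMAD-type sites.
Slc7a10, chr7:35186135-35186434, plus strand: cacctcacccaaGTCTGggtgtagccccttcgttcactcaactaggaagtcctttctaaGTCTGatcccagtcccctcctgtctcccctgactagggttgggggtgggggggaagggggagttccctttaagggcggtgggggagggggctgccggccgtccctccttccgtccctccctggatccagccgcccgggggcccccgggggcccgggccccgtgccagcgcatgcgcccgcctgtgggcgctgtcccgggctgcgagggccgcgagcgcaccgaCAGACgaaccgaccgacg
Inmt, chr6:55174941-55175240, minus strand: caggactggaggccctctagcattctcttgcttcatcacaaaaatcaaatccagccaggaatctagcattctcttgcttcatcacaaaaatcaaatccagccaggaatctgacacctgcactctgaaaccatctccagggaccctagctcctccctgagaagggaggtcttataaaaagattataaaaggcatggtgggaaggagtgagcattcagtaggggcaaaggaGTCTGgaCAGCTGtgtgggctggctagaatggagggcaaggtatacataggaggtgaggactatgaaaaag
Gdf10, chr14:33923337-33923636, plus strand: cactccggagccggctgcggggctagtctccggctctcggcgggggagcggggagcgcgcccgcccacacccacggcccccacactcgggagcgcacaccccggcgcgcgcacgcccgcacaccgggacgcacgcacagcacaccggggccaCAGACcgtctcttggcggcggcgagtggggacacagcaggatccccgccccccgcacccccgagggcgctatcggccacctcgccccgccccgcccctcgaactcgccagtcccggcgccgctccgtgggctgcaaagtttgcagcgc
The set of RefSeq promoters used held entries for 9 of the 10 genes, and none under the symbol Ces1d. Inmt was the only gene of these 9 with CAGCTG in the window, 14 bases before the RefSeq start, and 16.3% of 32841 promoters of the same length held it. These letters lie inside the Inmt gene as placed by GENCODE, whose 5′ end is at chr6:55175043. CAGAC was in 6 of the 9, namely Inmt, Tcf21, Limch1, Scube2, Gdf10 and Slc7a10, and in 49.6% of all promoters. Slc7a10 and Tcf21 each held it at 3 places. These matches describe the letters of the window and no binding was measured.

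At day 0 the genes spanned a wide range of level per length. Inmt was highest at 1210 ± 289 RPKM (SD, n = 4), followed by Ces1d at 368 ± 44.3 and Npnt at 157 ± 6.28. Limch1 lay at 99.8 ± 15.1 RPKM, Itga8 at 31.0 ± 4.08, Tcf21 at 27.1 ± 4.52 and Col13a1 at 14.7 ± 1.62. Scube2 at 10.2 ± 1.08 and Slc7a10 at 10.2 ± 2.33 could not be ordered, and Gdf10 was lowest at 2.29 ± 0.471. Of the neighbours in this order, Itga8 and Tcf21 overlapped between libraries, as did Scube2 and Slc7a10. By day 21 Inmt still led at 117 ± 56.8 RPKM (n = 3), but its libraries overlapped those of Ces1d at 89.4 ± 10.1. Slc7a10 had moved to the last place at 0.294 ± 0.161 RPKM, with every library below every library of Gdf10 at 2.00 ± 0.578.

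**Figure D1:**
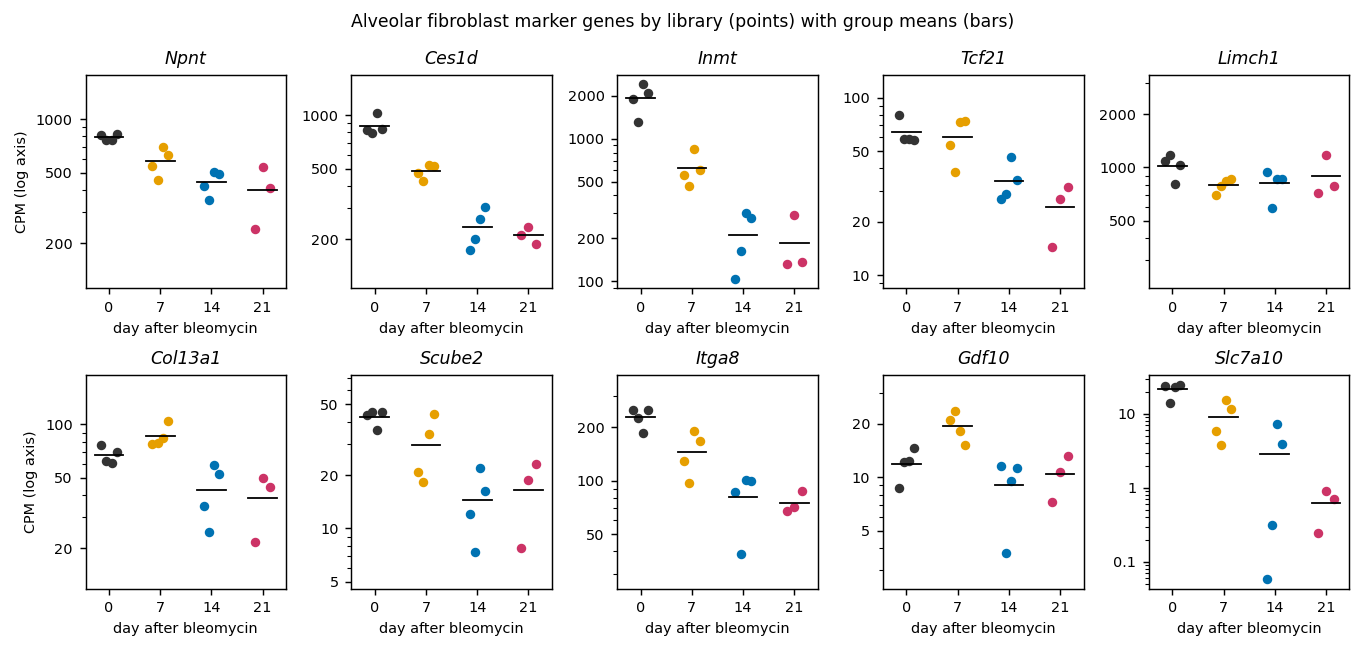
CPM of the 10 genes (log axes) against day after bleomycin. Each point is a library and each bar the mean of the day. Inmt and Ces1d step down at day 7 and again at day 14, Gdf10 and Col13a1 stand higher at day 7 than at day 0, and Slc7a10 ends below 1 CPM in all 3 day 21 libraries.

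Inmt, indolethylamine N-methyltransferase, transfers methyl groups to tryptamine and related amines. Its gene lies at chr6:55170626-55175043 on the minus strand. The day 0 libraries held 1903, 1318, 2419 and 2102 CPM. At day 7 the values were 554, 463, 851 and 607 CPM, and at day 14 they were 104, 163, 302 and 279.6 CPM. The 3 groups did not overlap. Inmt fell 3.13-fold at day 7 (log2 fold change -1.65, SE 0.34, adjusted p = 0.00316 by edgeR) and was 9.13-fold lower than day 0 at day 14 (log2 -3.19, SE 0.36, adjusted p = 1.33e-05). At day 21 the libraries had 133, 292 and 136 CPM, within the range of day 14.

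Ces1d is a carboxylesterase that cleaves stored triacylglycerol. It belongs to a cluster of closely related carboxylesterase genes on chromosome 8, and reads with several alignments were left out by the authors. Its level may therefore be too low, by an amount that was not measured. Ces1d had 825, 799, 1028 and 838 CPM at day 0 and 471, 424, 522 and 516 CPM at day 7. At day 14 it had 175, 200.3, 260.3 and 305 CPM. All day 7 libraries lay below all day 0 libraries, and all day 14 libraries below all day 7 libraries. It fell 1.81-fold at day 7 (log2 -0.85, SE 0.16, adjusted p = 0.00177) and stood 3.71-fold below day 0 at day 14 (log2 -1.89, SE 0.16, adjusted p = 2.17e-06). The day 21 libraries held 187 to 235 CPM, within the range of day 14.

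Tcf21 is a basic helix-loop-helix transcription factor needed for the growth of the embryonic lung. Its gene lies at chr10:22817281-22820174 on the minus strand. At day 0 it had 79.7, 58.7, 58.9 and 57.8 CPM, and at day 7 it had 54.0, 38.2, 72.9 and 74.4 CPM. These groups overlapped, and the difference did not pass the test (log2 -0.09, SE 0.24, adjusted p = 0.820). At day 14 the values of 26.9, 28.9, 46.3 and 34.5 CPM lay below all of day 0, and Tcf21 fell 1.87-fold (log2 -0.90, SE 0.25, adjusted p = 0.0116). Day 21 held 14.3, 26.9 and 31.5 CPM.

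Npnt encodes nephronectin, a basement membrane protein, and Itga8 the alpha8 subunit of the integrin that binds it. Npnt had 811, 761, 764 and 822 CPM at day 0, and 545, 452, 697 and 628 CPM at day 7. The groups did not overlap, yet Npnt did not pass the test at day 7 (log2 -0.44, SE 0.20, adjusted p = 0.117). At day 14, with 418, 351, 501 and 488 CPM, it fell 1.80-fold against day 0 (log2 -0.84, SE 0.20, adjusted p = 0.00497). Npnt is also made by alveolar type 1 cells, and over the 15 libraries its log2 CPM with day means removed had a Pearson r of 0.698 with the mean of 5 alveolar type 1 markers. Npnt had an r of 0.686 with alveolar type 2 markers, and Tcf21 one of 0.720 with those of type 1. These libraries share their day and depth, and the part of that cell type in the Npnt result was not tested.

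Itga8 had 251, 226, 187 and 249.7 CPM at day 0. The day 7 values of 129, 96.8, 191 and 168 CPM overlapped them and missed the threshold (log2 -0.64, SE 0.25, adjusted p = 0.0734). At day 14 the libraries held 86.4, 38.9, 101 and 99.2 CPM, all below day 0, and Itga8 fell 2.80-fold (log2 -1.49, SE 0.26, adjusted p = 0.0005000). The ligand and its receptor subunit thus both fell at day 14. At day 21 Itga8 held 67.3 to 87.5 CPM and Npnt 242 to 540.2 CPM.

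Scube2 encodes a secreted protein that helps to release lipid-bound hedgehog from the cell that makes it. It had 43.3, 45.0, 35.8 and 45.5 CPM at day 0. Day 7 was split, with 20.8 and 18.3 CPM in replicates 1 and 2 and 34.0 and 44.3 CPM in replicates 3 and 4, and did not pass the test (log2 -0.53, SE 0.34, adjusted p = 0.269). At day 14 it had 12.1, 7.40, 22.0 and 16.2 CPM, a 2.94-fold fall from day 0 with no overlap (log2 -1.55, SE 0.35, adjusted p = 0.00344). The 3 day 21 libraries held 7.79, 18.6 and 22.9 CPM.

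Gdf10, a secreted ligand of the TGFβ superfamily, took another course. It had 8.67, 12.2, 12.3 and 14.6 CPM at day 0 and 21.0, 23.7, 18.2 and 15.3 CPM at day 7. All day 7 libraries were above all day 0 libraries, but the difference missed the threshold (log2 0.71, SE 0.28, adjusted p = 0.0796). At day 14, with 11.6, 3.76, 9.50 and 11.3 CPM, it overlapped day 0 (log2 -0.40, SE 0.29, adjusted p = 0.304). In the fit to the 2 groups alone and within the libraries with a mitochondrial share under 2.5%, the higher level at day 7 passed the thresholds (log2 0.89 in the latter, adjusted p = 0.0225). The latter keeps only day 0 replicates 1 and 2, at 8.67 and 12.2 CPM, and leaves out replicates 3 and 4, at 12.3 and 14.6 CPM.

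Col13a1, a collagen that spans the cell membrane at adhesion sites, was also higher at day 7 in every library. Its values were 76.8, 62.1, 60.9 and 70.2 CPM at day 0 and 77.9, 78.5, 84.1 and 104 CPM at day 7. The difference did not pass the test (log2 0.35, SE 0.25, adjusted p = 0.326). At day 14 the libraries held 34.6, 24.7, 59.4 and 52.3 CPM, all below day 0, with a difference that also missed the threshold (log2 -0.66, SE 0.26, adjusted p = 0.0594).

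Limch1, which binds actin and non-muscle myosin, overlapped day 0 at every later day. It ranged from 810.1 to 1175 CPM at day 0, from 701 to 859 CPM at day 7, from 593 to 943 CPM at day 14 and from 718 to 1169 CPM at day 21. Limch1 did not pass the test at day 7 (log2 -0.37, SE 0.18, adjusted p = 0.144) or at day 14 (log2 -0.33, SE 0.18, adjusted p = 0.172).

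Slc7a10 encodes Asc-1, which carries small neutral amino acids such as serine, alanine and glycine across the cell membrane and works as a pair with the heavy chain encoded by Slc3a2. Its gene lies at chr7:35186385-35201114 on the plus strand. At day 0 it had 24.1, 14.2, 22.7 and 24.9 CPM, from 235 to 446 reads. At day 7 it had 5.78, 3.74, 15.5 and 11.53 CPM, so that 1 library reached into the day 0 range. Day 14 was widely spread, with 0.0591, 0.319, 7.32 and 3.92 CPM, from 1, 5, 128 and 65 reads. At day 21 all 3 libraries were low, with 0.247, 0.912 and 0.706 CPM from 4, 16 and 12 reads.

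As a description, the log2 fold change of Slc7a10 from day 0 was -1.23 (SE 0.70) at day 7, -2.87 (SE 0.76) at day 14 and -5.08 (SE 1.005) at day 21. The value at day 14 rested on the spread between its libraries. It was -4.40 in limma voom, which averages on the log scale, and -3.89 without day 14 replicate 3. At day 7 it was -0.54 with the mitochondrial share as a covariate. Between days 7 and 14, the only comparison of Slc7a10 that the choice of genes did not use, the difference did not pass the test (log2 -1.64, SE 0.74, adjusted p = 0.180).

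The value that chose Slc7a10 was its fall at day 21. Among named genes with a mean of at least 5 CPM and groups that did not overlap, Krt79 at log2 -6.31 and Car3 at -5.59 stood before it. Colq at -4.43, Slfn4 at -4.37 and Cyp2e1 at -4.35 stood just after. Among all 17457 genes it was number 12 from the lowest log2 fold change. Slc7a10 overlaps Lrp3 on the opposite strand, and the strand setting of the counting was not given in the sources used here, so reads from the shared part cannot be told apart. Lrp3 had 120 to 270 reads per library, including those in which Slc7a10 had 1 to 16.

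Slc3a2, the heavy chain partner, did not follow Slc7a10. It had 281 ± 37.4 CPM at day 0, 260 ± 25.0 at day 7 and 252 ± 12.3 at day 14, and passed no test (adjusted p = 0.485 at day 7 and 0.313 at day 14). The list of amino acid transporters held Slc3a2 and 7 other SLC7 genes. Of the 8, 4 were higher and 0 lower at day 7, and 6 were higher and 0 lower at day 14, where 8.78% and 12% of all genes tested were called higher and 7.36% and 11.2% lower. The median log2 fold changes were 0.71 and 0.81 against 0.01 and 0.02 over all genes. Leaving out any 1 library gave 5 to 6 at day 14. Slc7a11, the cystine transporter, rose from 3.01 ± 1.10 to 26.5 ± 6.59 CPM at day 14 (log2 3.14, SE 0.24, adjusted p = 9.05e-07). Slc7a8, a carrier of neutral amino acids, rose from 4.45 ± 1.37 to 21.5 ± 7.54 CPM (log2 2.27, SE 0.25, adjusted p = 1.01e-05). Slc7a2, which had the highest CPM of the SLC7 genes listed, had 67.1 ± 5.48 CPM at day 0 and 88.0 ± 32.5 at day 14 and did not pass (adjusted p = 0.154).

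Over the genes as a group, the comparison with day 0 covered the 9 genes other than Slc7a10. At day 7, 2 of 9 fell (Inmt and Ces1d) and 0 rose, where 7.36% of all genes tested were called lower, 8.78% higher and 16.1% in either direction. The median log2 fold change of the 9 was -0.44, against 0.01 over all genes. Within the libraries with a mitochondrial share under 2.5%, 4 of day 7 and 2 of day 0, Inmt stood at log2 -1.40 (adjusted p = 0.00455) and Ces1d at -0.77 (adjusted p = 0.00282). The count was 3 of 9 there, since Gdf10 was called higher, and 4 of 9 in the fit to the 2 groups alone, which added Itga8 and Gdf10. Over all genes, 2818 were called in the fit of all days, 2139 in the first of these and 3054 in the second.

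At day 14, 6 of 9 fell (Npnt, Ces1d, Inmt, Tcf21, Scube2 and Itga8) and 0 rose, where 11.2% of all genes tested were called lower, 12% higher and 23.1% in either direction. The median log2 fold change of the 9 was -0.90, against 0.02 over all genes. Leaving out any 1 library gave 6 to 7 of 9, and without day 0 replicate 4 the count was 6. Within the libraries with a mitochondrial share over 3.5%, 3 of day 14 and 2 of day 0, it was also 6. With a score of adipocyte markers as a covariate the count was 2 of 9, and the calls over all genes fell from 4040 to 1114. Inmt (log2 -3.12) and Ces1d (log2 -1.73) remained called in that fit. Itga8 (log2 -1.31, adjusted p = 0.0663), Npnt (log2 -0.84, adjusted p = 0.150), Tcf21 (log2 -0.84, adjusted p = 0.215) and Scube2 (log2 -1.08, adjusted p = 0.238) lost their calls.

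**Figure D2:**
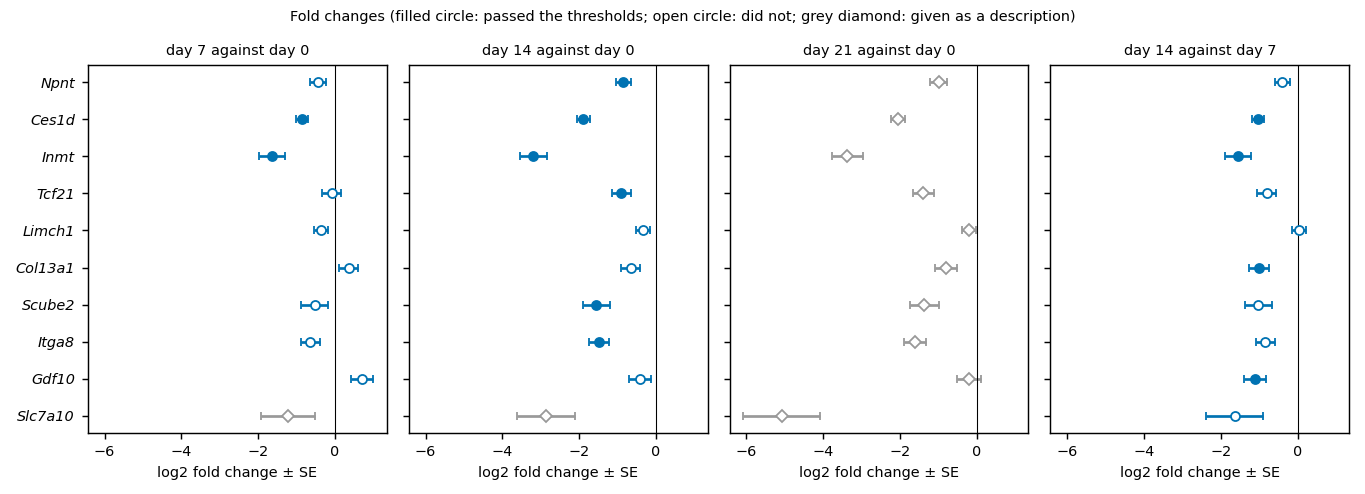
Log2 fold change (horizontal axis, with SE) of the 10 genes in 4 comparisons. Filled circles passed both thresholds, open circles did not, and grey diamonds are values given as a description. Inmt and Ces1d are filled at day 7, and 6 genes are filled at day 14.

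Between days 7 and 14, which share no library with the choice of Slc7a10, 4 of 10 genes fell and 0 rose, where 3.23% of all genes tested were called lower, 2.77% higher and 6% in either direction. These were Inmt (log2 -1.55, SE 0.34, adjusted p = 0.0175), Ces1d (log2 -1.04, SE 0.16, adjusted p = 0.00420), Col13a1 (log2 -1.01, SE 0.26, adjusted p = 0.0297) and Gdf10 (log2 -1.11, SE 0.29, adjusted p = 0.0317). All day 14 libraries lay below all day 7 libraries for each of the 4. Itga8 (adjusted p = 0.0567), Tcf21 (adjusted p = 0.0591), Scube2 (adjusted p = 0.0867) and Npnt (adjusted p = 0.229) did not pass. This count depended on single libraries. It was 2 without day 7 replicate 1, 1 without replicate 3, 2 without replicate 4 and 1 without day 14 replicate 2, with Ces1d called in each of these 4. It was 2 with the mitochondrial share as a covariate (Inmt and Ces1d), where the calls over all genes fell from 1048 to 218, and 7 in DESeq2, where they rose to 1634. With the adipocyte score as a covariate none of the 10 was called, Ces1d included (adjusted p = 0.0992), and 25 genes were called over the whole table.

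The comparison of day 21 with day 0 is given as a description, since it chose Slc7a10. Under the same thresholds, 7 of the 9 other genes were lower and 0 higher, where 10.1% of all genes tested were called lower, 12.4% higher and 22.5% in either direction. The log2 differences were -3.37 for Inmt, -2.04 for Ces1d, -1.60 for Itga8, -1.39 for Tcf21, -1.36 for Scube2, -0.99 for Npnt and -0.80 for Col13a1. Limch1 and Gdf10 both stood at -0.20. Without day 21 replicate 1 the count was 5. Between days 14 and 21, 0 of the 9 genes and 0% of all genes were called by edgeR. Their log2 differences lay between -0.49 and 0.20. At an unadjusted p under 0.05 there were 1714 genes over the whole table, and DESeq2 called 101, none of them among the 9 genes.

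The libraries of a day did not carry the same depression of these genes. At day 7, replicate 2 was lowest for 7 of the 10 genes, and at day 21 replicate 1 was lowest for 9. Day 21 replicate 1 also had the highest sum of cardiac muscle markers of its day (665 CPM). Its sums of alveolar type 1 and type 2 markers (1515 and 4026 CPM) were the lowest. At day 14 replicates 1 and 2 together were lowest for all 10, with median log2 changes over the 10 genes of -1.31 and -1.86 from the day 0 mean. Replicates 3 and 4 stood at -0.80 and -1.03. Over the 15 libraries, which share their day, the log2 CPM of Slc7a10 had a Pearson r of 0.939 with the mean of the other 9 genes, and 0.793 with day means removed. Limch1 (0.450) and Gdf10 (0.478) had the lowest such r, and the other genes had 0.850 to 0.939.

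**Figure D3:**
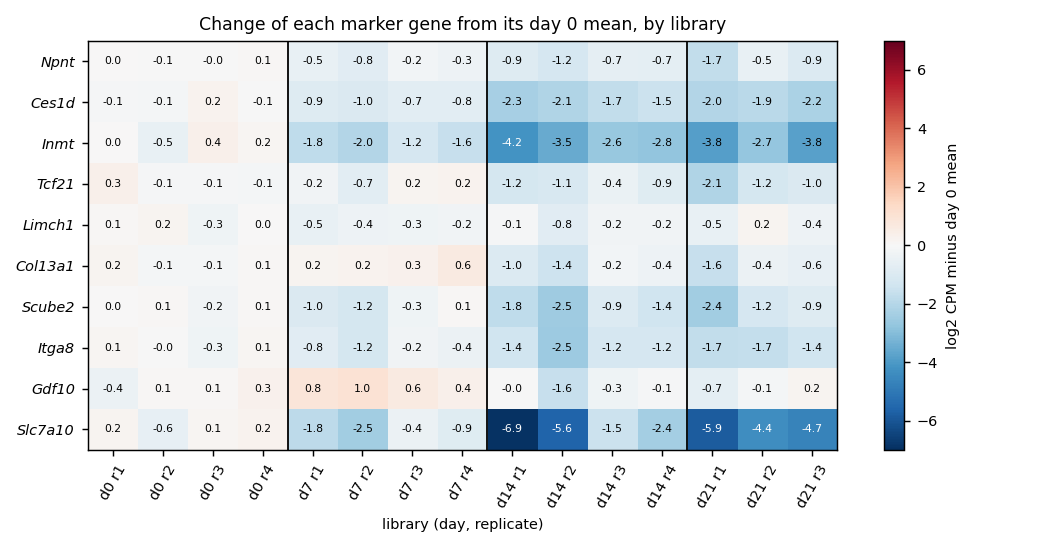
Log2 CPM of each gene minus its day 0 mean (colour and printed value) in each library, labelled by day (d) and replicate (r). Day 14 replicates 1 and 2 and day 21 replicate 1 are the bluest columns, and Gdf10 and Col13a1 are red in all 4 day 7 libraries.

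Among the genes whose log2 CPM was most like that of Slc7a10 over the 15 libraries were Negr1 (Pearson r 0.971), Tmem94 (0.968), Fgfr4 (0.963) and Mmp15 (0.958), out of 13883 genes with a mean of at least 1 CPM. This order uses the day 0 and day 21 libraries that chose Slc7a10, so genes with a like fall stand high in it. With day means removed the r values were 0.941, 0.957, 0.906 and 0.856 in the same order. Fgfr4 encodes a growth factor receptor of alveolar fibroblasts and Mmp15 a membrane-bound matrix protease. Mmp15 went from 211 CPM at day 0 to 155, 74.6 and 50.5 CPM at days 7, 14 and 21. Among the other 9 genes, Inmt came nearest to Slc7a10 (0.926, place 60) and Limch1 lay farthest (0.358). With day means removed Inmt was again nearest (0.850), while Gdf10 lay farthest (0.193) and Limch1 stood at 0.238. Genes much like the mean of those 9 were Ogn (0.979), a small matrix proteoglycan, Dpep1 (0.978), a membrane dipeptidase, Cst8 (0.975) and Pcolce2 (0.972), an enhancer of collagen processing.

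A second list of 13 alveolar fibroblast genes was read beside them. At day 7, 2 of 13 fell (G0s2 and Mamdc2) and 1 rose (Plin2), beside 7.36% of all genes lower and 8.78% higher. The median log2 fold change was -0.10. These 3 calls rested on single libraries: G0s2 was lost without day 0 replicate 3 or 4 or day 7 replicate 1, 2 or 4, Mamdc2 without day 0 replicate 2 or 4 or day 7 replicate 1 or 2, and Plin2 without day 0 replicate 3 or 4 or day 7 replicate 1. Adh1 was called higher without day 7 replicate 2. At day 14, 7 of 13 fell and 1 rose, beside 11.2% of all genes lower and 12% higher, with a median of -0.82. Leaving out any 1 library, an alternative chosen for these lists after their values were seen, gave 6 to 7 lower. Mamdc2, a matrix protein gene, fell from 132 ± 17.1 CPM at day 0 to 34.6 ± 13.1 at day 14 (log2 -1.93, SE 0.26, adjusted p = 5.93e-05). G0s2, an inhibitor of lipid breakdown, fell from 49.6 ± 20.6 to 13.2 ± 3.26 CPM (log2 -1.91, SE 0.32, adjusted p = 0.000370), and Fgfr4 from 33.6 ± 7.01 to 12.9 ± 7.31 CPM (log2 -1.38, adjusted p = 0.00860).

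Fgf10 and Wnt2, secreted growth factors of that list, were also lower at day 14. Fgf10, which acts on the epithelium, fell from 25.0 ± 4.13 to 14.2 ± 4.54 CPM (log2 -0.82, adjusted p = 0.00557), and Wnt2 from 12.5 ± 2.61 to 6.92 ± 1.58 CPM (log2 -0.86, adjusted p = 0.00273). Vegfd, another secreted growth factor of the list, had 52.7 ± 11.01 and 40.9 ± 16.8 CPM and did not pass (log2 -0.36, adjusted p = 0.282). Enpep (log2 -1.24, adjusted p = 0.00767), a membrane peptidase, and Slc38a5 (log2 -1.05, adjusted p = 0.0294), an amino acid carrier, completed the 7. The call of Slc38a5 was lost without replicate 1 or 2 of either day. Adh1, an alcohol dehydrogenase, did not pass at day 14 (log2 -0.38, adjusted p = 0.192) and was at 28.1 ± 7.54 CPM at day 21 against 54.7 ± 7.36 at day 0. Plin2, a lipid droplet coat protein, rose from 139 ± 28.9 to 211 ± 17.1 CPM at day 14 (log2 0.61, SE 0.15, adjusted p = 0.00554), and was under the fold threshold without day 0 replicate 3 or 4 or day 14 replicate 1 or 2. Pdgfra and Spon1, the highest of the 13 in CPM, did not pass at day 14 (adjusted p = 0.458 and 0.104), but Spon1 was called lower without day 14 replicate 1 (log2 -0.71, adjusted p = 0.00136).

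**Figure D4:**
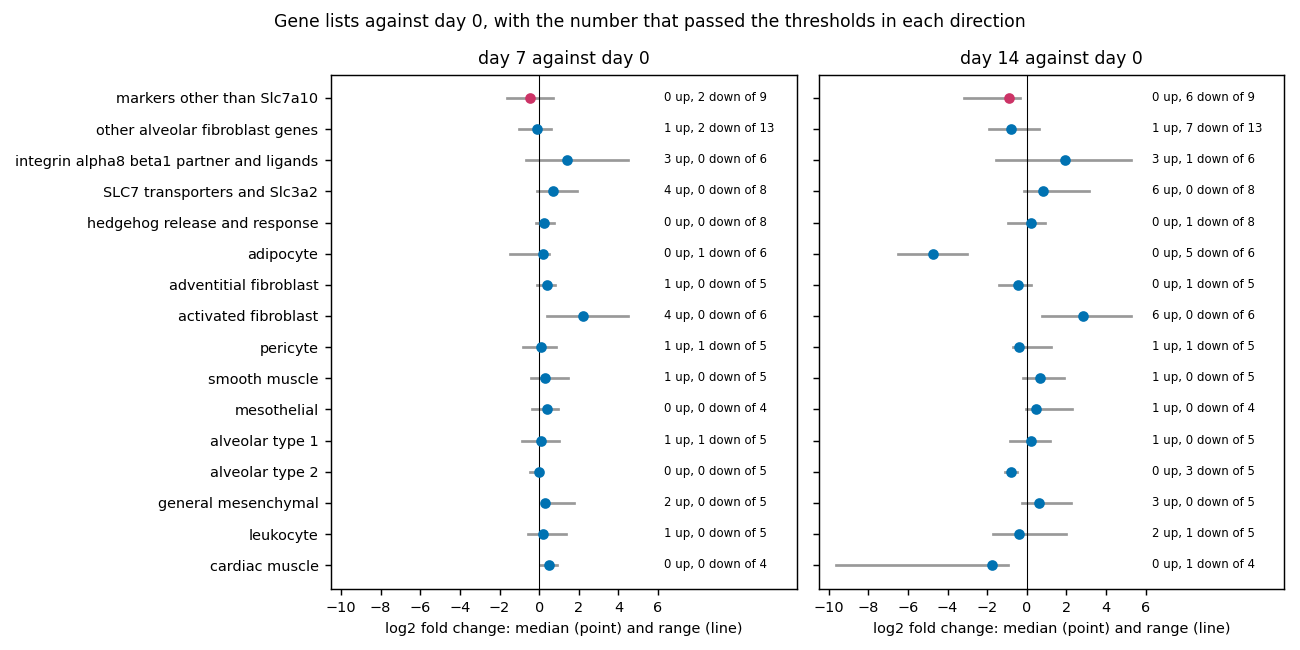
Median (point) and range (line) of log2 fold change over the genes of each list, at day 7 and day 14 against day 0, with the number called in each direction. The vertical line is the median of all genes. The markers other than Slc7a10 have 6 of 9 called lower at day 14, and the activated fibroblast list 6 of 6 called higher.

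The partners of the member proteins took different directions. Itgb1, the beta1 subunit that pairs with alpha8, had 919 ± 100.1 CPM at day 0 and 1283 ± 223 at day 14, a difference under the 1.5-fold threshold (log2 0.48, SE 0.14, adjusted p = 0.0134). Of 6 genes for this subunit and the ligands and activation target of the integrin, 3 rose and 0 fell at day 7, and 3 rose and 1 fell at day 14 (median log2 fold change 1.91), against the same shares of all genes. Without day 7 replicate 3, Vtn was called lower at day 7 (log2 -0.85, adjusted p = 0.0484). Fn1, fibronectin, rose from 412 ± 81.1 to 4142 ± 2935 CPM (log2 3.33, SE 0.37, adjusted p = 1.12e-05) and Spp1, osteopontin, from 60.6 ± 21.7 to 2149 ± 1180 CPM (log2 5.15, SE 0.46, adjusted p = 2.33e-06). Day 14 replicate 1 held 8540 CPM of Fn1 and the other 3 libraries 2514 to 2877 CPM, and leaving it out gave Fn1 a log2 fold change of 2.68. Tnc was the other that rose (log2 5.26, and 4.60 without that library), and Vtn, vitronectin, fell from 13.1 ± 1.95 to 4.43 ± 1.35 CPM (log2 -1.57, adjusted p = 0.000573).

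Of 8 genes of hedgehog release and response, 0 were called at day 7 and 1 at day 14, where 16.1% and 23.1% of all genes were called in either direction. Ptch1, the hedgehog receptor and a target of the pathway, fell from 107 ± 16.7 to 70.4 ± 16.9 CPM at day 14 (log2 -0.60, SE 0.19, adjusted p = 0.0214), a call lost without replicate 1 or 2 of either day. Gli1, another target, had 7.43 ± 2.49 CPM at day 0 and 9.78 ± 3.34 at day 14 and did not pass (adjusted p = 0.335). Scube1, a relative of Scube2, had 33.9 ± 7.73 CPM at day 0 and 53.3 ± 28.02 at day 14 (log2 0.65, adjusted p = 0.0572), and was called higher without day 14 replicate 2 or 4. With 1 library left out, 0 to 1 were higher at day 7, and 0 to 2 were higher and 0 to 2 lower at day 14. The genes that gained a call were also Scube3 (higher without day 0 replicate 2 at both days, and without day 14 replicate 2), Dhh (higher without day 0 replicate 1 or day 14 replicate 1) and Hhip (lower without day 14 replicate 3 or 4). At day 21, as a description, 5 of the 8 passed the thresholds beside 22.5% of all genes. Scube1, at 109 ± 7.10 CPM, and Scube3 were higher, and Shh (log2 -1.05), Ptch1 (log2 -0.81) and Hhip (log2 -1.29) were lower.

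The fibroblast lists did not move as 1 block. All 6 genes of the activated fibroblast list rose at day 14 (median log2 fold change 2.85), and 4 of 6 rose at day 7, beside 12% and 8.78% of all genes. With 1 library left out the day 14 count was 5 to 6. The call of Postn (log2 0.78) was lost without day 0 replicate 2 or 4 or day 14 replicate 1, and Cthrc1 went from log2 2.83 to 2.00 without the last of these. Col1a1 rose from 313 ± 74.8 to 2282 ± 1885 CPM at day 14 (log2 2.87, SE 0.44, adjusted p = 0.000208). Day 14 replicate 1 held 5084 CPM and the other 3 libraries 1495, 1558 and 991 CPM, and leaving it out gave a log2 fold change of 2.08 (adjusted p = 0.000112). Of 5 general mesenchymal genes, 3 rose and 0 fell at day 14, among them Col1a2 (log2 2.23, adjusted p = 0.000400, and 1.53 without day 14 replicate 1) and Vim (log2 0.63, adjusted p = 0.0275). The call of Vim was lost without any 1 of the day 0 libraries and without day 14 replicate 1 or 2. Of 5 genes of adventitial fibroblasts, which surround vessels and airways, 1 rose at day 7 and 1 fell at day 14, beside 8.78% and 11.2% of all genes. Col14a1 was the one that rose (log2 0.80, adjusted p = 0.00727). The one that fell was Pi16, named because the count is small (log2 -1.40, adjusted p = 0.00116), while Dpt (log2 -0.51) and Dcn (log2 -0.42) did not pass both thresholds. Dpt was called lower without day 0 replicate 1 or day 14 replicate 3.

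Slc7a10 and Ces1d are also made by adipocytes, so 7 adipocyte markers were set beside them. Their summed level was 20.1 to 70.4 CPM at day 0, 9.49 to 140 CPM at day 7, 1.36 to 3.95 CPM at day 14 and 0.969 to 3.22 CPM at day 21. Of the 6 that could be tested, 1 fell at day 7 (Cidec) and 5 fell at day 14, beside 7.36% and 11.2% of all genes, and their median log2 fold change was then -4.71. Retn was called lower at day 7 without day 7 replicate 4. Lep was at 0 in all day 21 libraries, but it was near 0 at every day (mean 0.0601 CPM at day 0) and could not be tested. Adipoq, which is particular to adipocytes, was at 0 in 3 of 4 day 14 libraries. Cfd had 17.1 ± 14.0 CPM at day 0 and 0.179 ± 0.177 at day 14, and Cidec 18.2 and 2.15 CPM.

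Within a day, a high adipocyte sum and a high level of Slc7a10 did not always stand in the same library, although both were lower at days 14 and 21 than at day 0. Day 0 replicate 1 had the lowest adipocyte sum of its day, 20.1 CPM with 2 reads of Adipoq, and 24.1 CPM of Slc7a10. Day 7 replicate 4 had the highest sum, 140 CPM, and 11.53 CPM of Slc7a10, while replicate 3 with 29.3 CPM had 15.5. At day 14 replicate 3 held 7.32 CPM of Slc7a10 beside an adipocyte sum of 2.69 CPM. With day means removed, the Pearson r between Slc7a10 and the adipocyte markers over the 15 libraries was 0.108, and for Ces1d it was 0.226. The adipocyte sums at days 14 and 21 were at most 3.95 CPM, so in those libraries this r rests on few reads. The part of adipocytes in the levels of Slc7a10 and Ces1d was not tested.

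Alveolar type 2 markers were also lower at the later days. The sum over 5 such markers was 23745 to 33644 CPM at day 0, 16103 to 24007 at day 7, 6541 to 19298 at day 14 and 4026 to 8853 at day 21. None of the 5 was called at day 7, and 3 fell at day 14 beside 11.2% of all genes, among them Sftpc (log2 -0.99, adjusted p = 0.0429) and Sftpb (log2 -0.66, adjusted p = 0.0236). The third was Slc34a2, which went from 2666 ± 252 CPM at day 0 to 1239 ± 499 at day 14. At day 21, as a description, all 5 were lower (median log2 fold change -1.93), beside 10.1% of all genes. With 1 library left out the day 14 count was 1 to 3. Sftpc was lost without day 0 replicate 1, 2 or 3 or day 14 replicate 1, 2 or 3, and Sftpb without day 0 replicate 3 or day 14 replicate 1. With day means removed, the r of the 10 genes with these markers ran from 0.0709 for Gdf10 to 0.740 for Slc7a10, with Itga8 at 0.156 and Limch1 at 0.254 and the other 7 at 0.556 or more. With the activated fibroblast list it ran from 0.110 for Itga8 to -0.800 for Inmt, with Slc7a10 at -0.646, Scube2 at -0.177, Limch1 at -0.0684 and Gdf10 at 0.0354. These libraries share a lung sample for both quantities, and the part of alveolar type 2 cells or activated fibroblasts in the levels of the 10 genes was not tested.

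**Figure D5:**
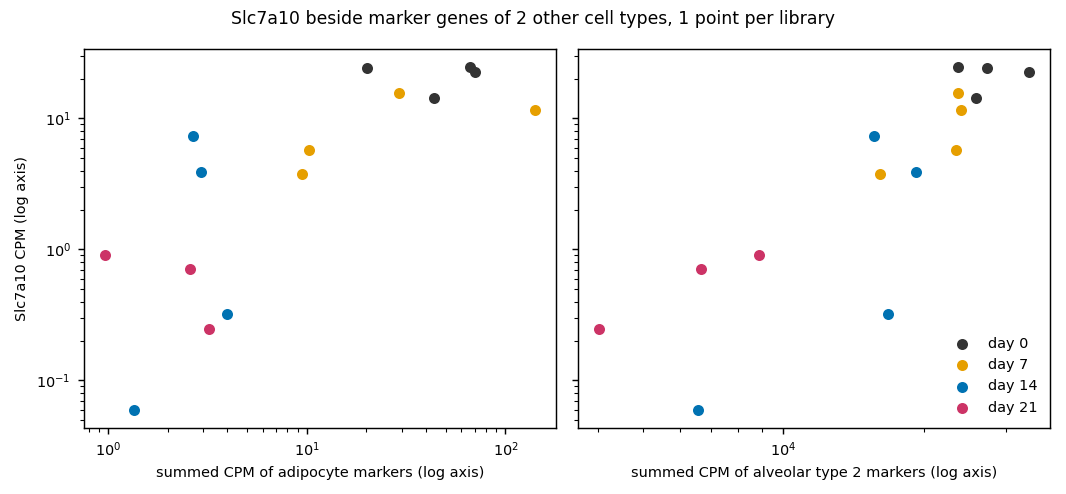
Slc7a10 CPM (vertical) against the summed CPM of 7 adipocyte markers (left) and 5 alveolar type 2 markers (right) on log axes, 1 point per library and 1 colour per day. Day 14 replicates with Slc7a10 at 7.32 and 0.0591 CPM both lie at an adipocyte sum under 3 CPM.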

How the data were processed

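Polyadenylated RNA of whole mouse lungs was sequenced in 15 libraries. After trimming with TrimGalore, the authors aligned reads to GRCm38 (mm10) by HISAT2 2.1.0 and dropped those mapping to more than 1 place. They deposited HTSeq 0.6.0 counts per Ensembl gene without normalization. Symbols, coordinates and exon lengths came from GENCODE M21, which matched 33267 of 33340 rows, with 0.00889% of all reads in the rest. Totals of 15652008 to 18020661 per library set the precision of low genes such as Slc7a10.

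Day and replicate number came from the titles. In edgeR 4.0.16 (R 4.3.3), filterByExpr left 17457 genes, and TMM factors, glmQLFit and glmQLFTest were used with a single fit of all libraries by day. SEs are the log2 fold change over the square root of F. RPKM is CPM over the union of exons. Log2 CPM has a prior count of 2. The fit was tested on simulated data.

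The 10 genes and all gene lists were chosen with earlier results of these data known. The genes named were the 10, members of the second alveolar fibroblast list called in a comparison with day 0, Slc3a2, Itgb1, Ptch1 and Gli1, the 2 highest in mean CPM of each other list, and the 5 most correlated each with Slc7a10 and with the mean of the other 9, except 1 gene that is not reported here. Slc7a8, Slc7a11, Tnc, Vtn, Vegfd, Scube3, Shh, Hhip, Adipoq, Lep, Pi16, Col14a1, Postn, Cthrc1, Cox4i2, Dhh, Retn, Higd1b, Hopx, Cd3e, Slc34a2, Cspg4, Pdpn, Lrp3 and the 5 genes around Slc7a10 in the day 21 order stand outside that rule and were chosen after their values were seen. Alternatives were DESeq2 1.42.0, limma voom 3.58.1, other scalings and filters, fits to the 2 groups alone, a replicate block, mitochondrial and adipocyte covariates, and leaving out libraries.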

Additional observations from a re-analysis of the deposited data

Results flagged for a closer look

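Of 30 groups of 4 libraries (10 genes at days 0, 7 and 14), 2 held a library far from the other 3, where chance gives about 5% of groups. Ces1d stood at 1028 CPM in day 0 replicate 3, above the other 3 day 0 libraries, and Tcf21 at 79.7 CPM in day 0 replicate 1.

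For 4 genes the change from day 0 differed between day 14 and day 7, as tested by edgeR between the groups of those days. The log2 differences were -1.04 for Ces1d, -1.55 for Inmt, -1.01 for Col13a1 and -1.11 for Gdf10. For Ces1d and Inmt the later day was the further step of the same fall. For Col13a1 and Gdf10 the day 7 libraries lay above those of day 0, a difference that did not pass the test.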

How the results depend on the processing

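The counts of genes called were within 1.5 times of those reported in 84 of 95 alternatives. At day 7 against day 0 the count of 9 was 2, and 4 in the fit to the 2 groups alone. With the adipocyte score as a covariate it was 2 at day 14 and 4 at day 21, and 0 between days 14 and 7, where 25 genes were called over the whole table; the cause was not tested. The count of 4 of 10 between days 14 and 7 became 7 in DESeq2 and 7 with no filter (1634 and 1283 over all genes), and 2 under the mitochondrial covariate. Leaving out 1 library gave 2 to 3 at day 7, 6 to 7 at day 14, 5 to 7 at day 21, 1 to 5 between days 14 and 7 and 0 between days 21 and 14. With the replicate number as a block the counts were 3, 7, 6, 6 and 0 in the same order. Correlations of same-numbered libraries ran from -0.244 to 0.397, with a median of 0.0406. Those of differently numbered libraries ran from -0.326 to 0.258, with a median of -0.032. These ranges overlap and do not settle whether the numbers pair the libraries. Of 775 log2 fold changes under alternatives 719 were kept, 24 lost the call, 25 gained it, 2 moved and 5 changed sign. Values that were tested were kept if sign and call held. Those not tested were kept if the sign held and the shift was within the SD of the later day, whatever their call. Calls lost at day 21 against day 0 are thus among the 719. The 2 that moved were untested values of Slc7a10 between days 21 and 14 (-2.21), at -0.77 in limma voom and -1.19 without day 14 replicate 3. The 5 changes of sign concerned Tcf21 at day 7, whose values with 1 library left out ran from -0.212 to 0.0747, and Limch1 between days 14 and 7, from -0.0368 to 0.166 with 1 library left out and -0.0367 with the adipocyte score, where the cause was not tested. Between days 21 and 14, 13 of 162 changed sign and 0 passed. A count below 20 reads, as for Slc7a10 in 5 libraries, limits its fold changes.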

Other observations

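Lists of the other cells that a whole lung holds were read beside the 10 genes. Over all genes 8.78% were called higher and 7.36% lower at day 7, and 12% higher and 11.2% lower at day 14. Of 5 pericyte genes, 1 rose and 1 fell at day 7, and 1 rose and 1 fell at day 14. At day 7 Cspg4 rose, a call lost without any 1 library of the 2 days. Higd1b fell, a call lost without day 0 replicate 4 or day 7 replicate 1 or 2. The one that fell at day 14 was Cox4i2 (log2 -0.67), whose call was lost without day 0 replicate 1 or 3 or day 14 replicate 1 or 4, while Pdgfrb (log2 0.50) and Notch3 (log2 -0.39), the highest in CPM, did not pass both thresholds. At day 14 Pdgfrb was called higher without day 14 replicate 4, and Higd1b lower without day 0 replicate 2 or day 14 replicate 3. Of 5 smooth muscle genes 1 rose at day 7 and at day 14. This was Acta2, which went from 109 to 396 CPM at day 14 (log2 1.87, SE 0.32, adjusted p = 0.000418 by edgeR), and Des did not pass (adjusted p = 0.0896) except without day 14 replicate 4. Of 4 mesothelial genes, Msln rose at day 14 (log2 2.28, SE 0.41, adjusted p = 0.000635) and Upk3b stood at 104 and 100.3 CPM.

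Of 5 alveolar type 1 genes, 1 rose (Pdpn) and 1 fell (Hopx, log2 -0.77) at day 7. The day 7 call of Hopx was lost without day 0 replicate 1 or 3 or day 7 replicate 1, 2 or 4. At day 14, 1 rose and 0 fell, but without day 14 replicate 2 Hopx was called lower (log2 -0.71, adjusted p = 0.0284). Ager stood at 2300.4 CPM at day 0 and 2679.8 at day 14 (adjusted p = 0.517), and Aqp5 did not pass (adjusted p = 0.0974). Beside the same shares of all genes, of 5 leukocyte genes 2 rose and 1 fell at day 14, with Cd68 at log2 2.00 (adjusted p = 5.78e-06) and Ptprc at -0.40 (adjusted p = 0.197). Cd3e was called lower without day 0 replicate 4 or day 14 replicate 3. Of 4 cardiac muscle genes tested, Myh6 was called lower at day 14 and Actc1 was not (adjusted p = 0.144). The call of Myh6 was kept without day 0 replicate 1 and lost without any 1 of the other 7 libraries. The summed level of the cardiac markers differed widely between libraries, from 18.2 to 224 CPM at day 0 and from 11.8 to 665 CPM at day 21.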
